A study of Mus musculus with 9 samples.

Results

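The genes described here are the ligands, receptors and latent binding proteins of transforming growth factor beta (TGF-beta) in RENCA, a renal carcinoma line from mouse, together with the related ligand Gdf5. They are 10 rows of a table of 54532 genes, found by symbol: Tgfb1, Tgfb2, Tgfb3, Gdf5, Tgfbr1, Tgfbr2, Ltbp1, Ltbp2, Ltbp3 and Ltbp4. Poly(A) RNA was sequenced from 3 forms of the line, with 3 libraries each. Empty-vector cells are labelled WT for Ndufa4l2. Knockout cells, labelled NDUFA4L2 -/-, were grown as single-cell colonies after editing with a guide in the plasmid PX458 and were screened by qPCR. Rescue cells, labelled NDUFA4L2 +/+, expressed Ndufa4l2 from a lentivirus and had been selected with puromycin at 1.5 ug/mL. The number of knockout colonies behind the libraries was not given in the sources used here. Hence the effect of the gene and that of clone choice, of the virus or of selection cannot be told apart. The labels do not say whether replicates were separate cultures, so p-values measure the spread between these libraries only. The series text counts fewer knockout libraries than the 3 that are labelled and were used.

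TGF-beta is secreted in a latent form. Its propeptide stays wrapped around the mature dimer and is usually disulfide-linked to a latent TGF-beta-binding protein (LTBP), which anchors the complex in the matrix until integrins, proteases or thrombospondin release the ligand. Free ligand binds the type II receptor Tgfbr2, which recruits and phosphorylates the type I receptor Tgfbr1, and this in turn phosphorylates Smad proteins. In kidney the pathway is known for its part in fibrosis and in the loss of epithelial traits.

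Total counts ran from 13106531 to 26643877 per library. Ndufa4l2 itself had 12, 6 and 16 counts in empty vector, 7, 8 and 6 in knockout and 73, 48 and 35 in rescue, so the rescue label was borne out and the knockout label was not checked by RNA. Genes of the mitochondrial genome took 5.79% to 7.93% of counts in knockout, 2.16% to 3.17% in empty vector and 2.23% to 2.65% in rescue. Renal epithelial markers summed to 1003 to 1226 CPM (counts scaled to the size of each library) in empty vector, 1621 to 1749 in knockout and 1339 to 1389 in rescue. Of 9 tested among 10, 6 were higher and 3 lower in knockout against empty vector (edgeR, adjusted p under 0.05). Of all tested genes, 60.6% were called in that comparison, 29.5% higher and 31.1% lower. The kidney lineage factor Pax8 stood at 237, 98.6 and 165 CPM in empty vector, knockout and rescue, the kidney cadherin Cdh16 at 319, 704 and 489, and E-cadherin, Cdh1, at 11.9, 99.6 and 2.46; Epcam had at most 1 count. The part of these differences in the results was not tested. In bulk RNA, a change in all cells and a change in some of them cannot be told apart.

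In knockout against empty vector, the RNA of Ltbp1, Ltbp3, Tgfb1 and Tgfbr1 rose together, Gdf5 and Tgfb2 fell, and Tgfbr2 stayed near the detection limit in every group. Ltbp1 had the largest change, a 21.4-fold higher mean CPM in knockout. Of the 10 genes, 9 had enough counts to be tested. With edgeR's quasi-likelihood test at an adjusted p under 0.05, 7 of the 9 were higher and 2 lower in knockout, where 60.6% of all 13326 tested genes were called in either direction, 29.5% higher and 31.1% lower. Ltbp2 passed the filter on low counts only through its knockout libraries, so its call was largely set by the filter. Over the other 8 genes, 6 were higher and 2 lower, and the median absolute log2 change was 1.26 against 0.37 over all tested genes. Library CPM values were free of overlap between these groups in 8 of the 9 (Ltbp2 among them), against 63.7% of all tested genes. The genes were chosen with results of these data known, so these counts are a description.

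**Figure D1:**
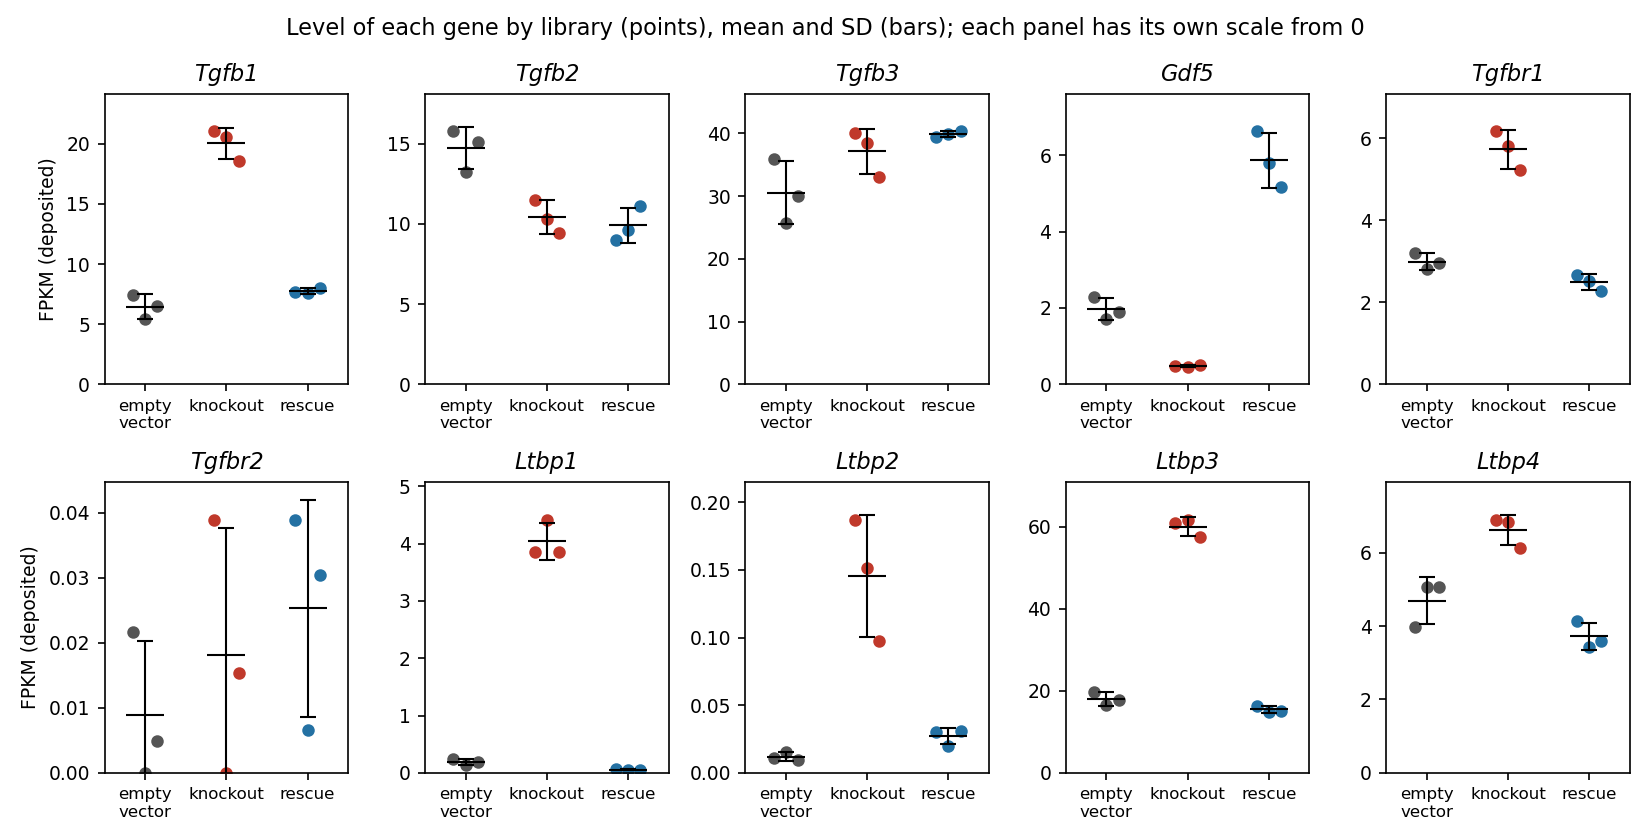
Deposited FPKM (fragments per kilobase of gene length, scaled to sequencing depth) of each of the 10 genes in the 9 libraries; points are libraries, bars the mean and SD of 3, and each panel has its own scale from 0. Knockout libraries lie above the others for Tgfb1, Tgfbr1, Ltbp1, Ltbp2, Ltbp3 and Ltbp4 and below them for Gdf5.

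Per length, Tgfb3 was the most abundant of the ligand RNAs in every group. In empty vector the levels ran from Tgfb3 at 30.5 ± 5.06 FPKM (SD, n = 3) through Ltbp3 at 17.98 ± 1.62, Tgfb2 at 14.7 ± 1.31, Tgfb1 at 6.47 ± 1.03, Ltbp4 at 4.69 ± 0.634 and Tgfbr1 at 2.99 ± 0.198 to Gdf5 at 1.96 ± 0.289. Below these stood Ltbp1 at 0.187 ± 0.0545, and Ltbp2 and Tgfbr2, whose ranges overlapped, at 0.0120 and 0.00884. In knockout, Ltbp3 took the first place at 60.05 ± 2.29 FPKM, and Tgfb1, at 20.1 ± 1.31, stood above Tgfb2, at 10.4 ± 1.04. Ltbp4 and Tgfbr1 were the only neighbours in that order whose knockout libraries overlapped, at 6.62 ± 0.420 and 5.73 ± 0.473 FPKM. In rescue, Tgfb3 again led at 39.9 ± 0.441 FPKM, and Gdf5, at 5.87 ± 0.730, had moved above Ltbp4 and Tgfbr1; Ltbp2 and Tgfbr2 again overlapped there.

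Among the ligands, Tgfb1 (ENSMUSG00000002603, chromosome 7, 25687002 to 25705077, plus strand, mm10) encodes the isoform best known from fibrosis and immune control. Its level was 37.6, 27.8 and 33.4 CPM in the empty-vector libraries (in replicate order, as for all genes below), 106, 104 and 93.9 in the knockout libraries and 39.0, 38.3 and 40.8 in the rescue libraries. Every knockout library lay above every other library. The log2 change was 1.61 ± 0.09 in knockout against empty vector (SE; edgeR adjusted p = 2.3e-11) and -1.36 ± 0.09 in rescue against knockout (edgeR adjusted p = 1.8e-10). Rescue lay slightly above empty vector, by 0.25 ± 0.09 (edgeR adjusted p = 0.026); this call was lost without empty-vector replicate 2 (edgeR adjusted p = 0.15) or 3 (0.059) and without rescue replicate 1 (0.057) or 3 (0.088), and the authors' deposited table gives an adjusted p of 0.060. Leukocytes are a rich source of this isoform, and 5 of 10 leukocyte markers had more than 3 counts in some library. The 4 that were tested all rose in knockout and fell in rescue against knockout. Of all tested genes, 29.5% rose in knockout against empty vector and 27.3% fell in rescue against knockout. The list's summed level was 211 to 228 CPM in knockout, 78.3 to 84.3 in empty vector and 39.0 to 44.5 in rescue. That sum came mostly from the lysosomal gene Cd68, at 205 CPM in knockout, while the pan-leukocyte gene Ptprc had at most 2 counts and Itgam and Cd3e had none. Its part in the Tgfb1 level was not tested.

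Tgfb2 (ENSMUSG00000039239, chromosome 1, 186622792 to 186705989, minus strand), whose product needs the co-receptor betaglycan to bind its receptor well, went the other way. Its level was 91.4, 78.3 and 89.0 CPM in empty vector, then 66.5, 59.8 and 54.8 in knockout, and finally 52.6, 56.0 and 64.7 in rescue. Empty-vector libraries lay above all others, and knockout and rescue overlapped. It fell by 0.52 on the log2 scale in knockout (SE 0.09; edgeR adjusted p = 4.7e-05) and stood 0.58 ± 0.09 lower in rescue than in empty vector (log2 change -0.58; edgeR adjusted p = 2.4e-05). From knockout to rescue the log2 change was -0.06 ± 0.09 (edgeR adjusted p = 0.55).

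Tgfb3 (ENSMUSG00000021253, chromosome 12, 86056745 to 86079041, minus strand), the third isoform, known from palate fusion and wound repair, varied least. It stood at 121, 89.0 and 103 CPM in empty vector, then 135, 130 and 112 in knockout, and finally 135, 136 and 137 in rescue. Knockout overlapped both other groups, and rescue lay above all empty-vector libraries. Its log2 change in knockout against empty vector was 0.26 ± 0.09 (edgeR adjusted p = 0.026), a call lost with library totals alone as the scale (0.11; edgeR adjusted p = 0.23), with only those groups in the fit (adjusted p = 0.053) and without any of 4 single libraries: empty-vector replicate 2 (adjusted p = 0.10) or 3 (0.076) and knockout replicate 1 (0.12) or 2 (0.089). Rescue differed from empty vector by a log2 change of 0.38 ± 0.09 (edgeR adjusted p = 0.0042) and from knockout by 0.11 ± 0.09 (edgeR adjusted p = 0.32; with library totals alone 0.30, edgeR adjusted p = 0.0021). The 3' end of Tgfb3 overlaps Ttll5 on the other strand up to 86061893, and reads there may have been counted without regard to strand, which the sources used here do not give. Ttll5 stood at 32.8, 40.0 and 40.4 CPM in empty vector, knockout and rescue, and its part in the Tgfb3 counts was not tested.

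The proportions of all 3 isoforms differed between groups without overlap, and only the Tgfb1 share was tested. Tgfb1 made up 12.6%, 12.2% and 12.6% of the summed FPKM of Tgfb1, Tgfb2 and Tgfb3 in empty vector, 29.0%, 29.7% and 30.4% in knockout and 13.7%, 13.3% and 13.5% in rescue. The groups did not overlap in any of 3 comparisons, each with a two-sided exact permutation p of 0.10, the smallest that 3 against 3 libraries allow (0.10 after adjustment over the 3). The share of Tgfb2 was 28.6% ± 1.68 in empty vector against 15.4% ± 0.484 in knockout and 17.2% ± 1.34 in rescue (SD, n = 3), and that of Tgfb3 was 58.9% ± 1.53, 54.9% ± 0.652 and 69.3% ± 1.33. The summed FPKM moved less, from 51.7 ± 7.32 to 67.7 ± 5.88 and 57.5 ± 1.72.

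**Figure D2:**
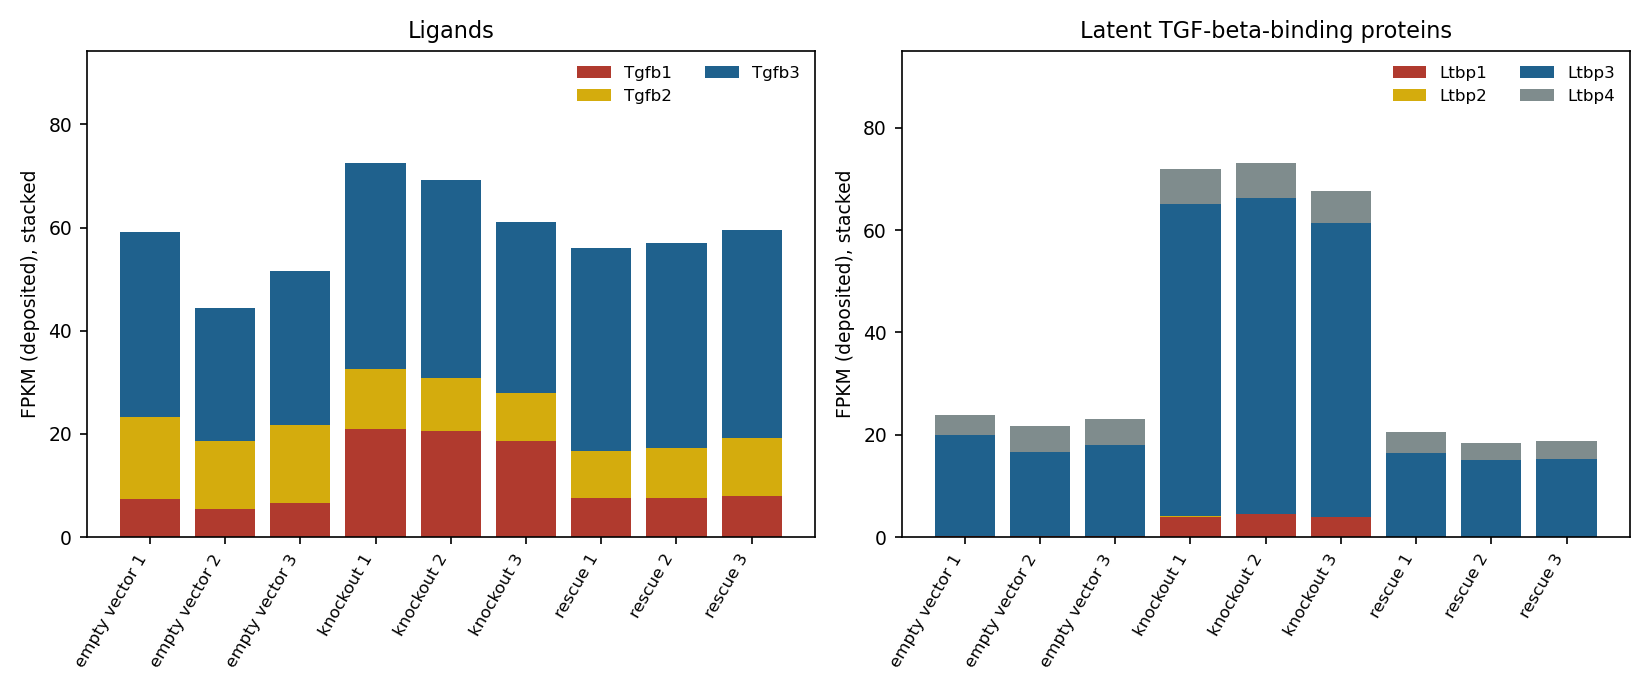
Deposited FPKM of the TGF-beta ligands (left) and of the LTBP genes (right), stacked for each of the 9 libraries from 0. The Tgfb1 segment is larger in the 3 knockout libraries than in the other 6, and the LTBP bars reach 67.5 to 73.1 FPKM there against 18.4 to 23.9 in the other 6.

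The sequences before the RefSeq start sites of Tgfb1 and Tgfb2 are shown because these isoforms moved in opposite directions in knockout. Each is the 250 bases before the start on GRCm38.p6 (RefSeq), 5′ to 3′ on the gene's strand, with capitals for matches on either strand to any of 7 motifs: CAGAC (Smad box), TGANTCA (AP-1), CACGTG (E-box), GGGCGG (GC box), GGGGCGGG (a longer GC box that contains it), TATAAA (the letters of a TATA box) and TGACNNNGC (antioxidant response element core). Tgfb1 lies at chr7:25686752-25687001, plus strand, and Tgfb2 at chr1:186705990-186706239, minus strand.
Tgfb1: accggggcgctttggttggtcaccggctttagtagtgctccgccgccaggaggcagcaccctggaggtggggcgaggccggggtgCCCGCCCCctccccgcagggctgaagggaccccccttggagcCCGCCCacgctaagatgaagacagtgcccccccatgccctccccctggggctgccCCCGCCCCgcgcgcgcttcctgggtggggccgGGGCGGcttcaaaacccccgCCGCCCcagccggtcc
Tgfb2: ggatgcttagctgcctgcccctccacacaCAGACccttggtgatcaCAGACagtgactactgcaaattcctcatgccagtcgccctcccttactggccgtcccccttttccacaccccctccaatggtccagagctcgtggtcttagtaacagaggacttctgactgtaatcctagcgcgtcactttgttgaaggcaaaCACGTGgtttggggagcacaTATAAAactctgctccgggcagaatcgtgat
The Tgfb1 window is 75.2% G and C and held 5 GC box matches, 2 of them within the longer form, and no other of these motifs. The Tgfb2 window is 53.6% G and C, close to the median of 52.4% over all 32851 windows, and held a TATA box match starting at -31, an E-box match at -51 and 2 Smad box matches at -221 and -204, counted from the start site. Of all windows, 32.7% held a GC box match, 12.4% a TATA box, 6.02% an E-box and 42.2% a Smad box. A match describes these letters only. Windows were found for 8 of the 10 genes, all but Tgfb3 and Gdf5.

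Gdf5 (ENSMUSG00000038259, chromosome 2, 155941023 to 155945367, minus strand) encodes a bone morphogenetic protein (BMP) family ligand known from joint formation. It had 5.28, 4.05 and 4.45 CPM in empty vector, then 1.08, 1.07 and 1.18 in knockout, and finally 15.5, 13.5 and 12.1 in rescue. The groups did not overlap, and rescue lay above empty vector as well as above knockout. Its log2 change was -2.04 ± 0.20 in knockout against empty vector (edgeR adjusted p = 3.6e-08), 3.61 ± 0.18 in rescue against knockout (edgeR adjusted p = 2.8e-12), where 17 of the tested genes had a larger increase, and 1.57 ± 0.14 in rescue against empty vector (edgeR adjusted p = 3.1e-08). Its counts were low, 13 to 28 per library in knockout. Bmpr1b, the type I receptor with the highest affinity for Gdf5, had at most 4 counts in any library (named after its values were seen).

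Of the receptors, Tgfbr1 (ENSMUSG00000007613, chromosome 4, 47353222 to 47414931, plus strand), the type I kinase, was, like Tgfb1, highest in knockout. It stood at 21.0, 18.8 and 19.6 CPM in empty vector, then 40.2, 37.9 and 34.3 in knockout, and finally 17.5, 16.5 and 14.97 in rescue. Knockout libraries lay above all others, and rescue lay below empty vector. The log2 change was 0.92 ± 0.09 in knockout (edgeR adjusted p = 2.8e-08), -1.18 ± 0.09 in rescue against knockout (edgeR adjusted p = 1.1e-09) and -0.27 ± 0.09 in rescue against empty vector (edgeR adjusted p = 0.019). The last call was lost without empty-vector replicate 1 (edgeR adjusted p = 0.086) or rescue replicate 3 (0.092), and the authors' deposited table gives an adjusted p of 0.095 for it.

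Tgfbr2 (ENSMUSG00000032440, chromosome 9, 116084293 to 116175360, minus strand), the type II receptor that binds the ligand first, was nearly undetected. It had 4, 0 and 1 counts in empty vector, 5, 0 and 3 in knockout and 9, 1 and 4 in rescue, among 61451491, 55731855 and 59237396 counts over the groups. Groups overlapped, and the gene did not enter the test. The ratio of scaled counts was 1.95 in knockout against empty vector, with a 95% exact interval of 0.564 to 7.59, and 2.84 in rescue against empty vector, with an interval of 0.965 to 10.1; these intervals cover counting error only. Its FPKM was at most 0.0389 in any library, where that of Tgfbr1 was at least 2.28. Tgfbr3, the betaglycan gene (named after its values were seen), was also low, at 1.04 ± 0.183, 0.803 ± 0.200 and 1.29 ± 0.123 CPM in empty vector, knockout and rescue, and did not pass in any comparison (edgeR adjusted p = 0.33 in knockout against empty vector, 0.069 between rescue and knockout, 0.39 between rescue and empty vector).

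Among the latent binding proteins, Ltbp1 (ENSMUSG00000001870, chromosome 17, 75005568 to 75392512, plus strand), a carrier of all latent TGF-beta isoforms, changed most. It had 57, 22 and 50 counts in empty vector, 634, 560 and 963 in knockout and 18, 10 and 7 in rescue, or 2.53, 1.41 and 2.01, then 40.3, 46.3 and 40.6, then 0.641, 0.548 and 0.440 CPM. The 3 groups were fully separated, with rescue below empty vector. The log2 change was 4.37 ± 0.14 in knockout against empty vector (edgeR adjusted p = 1.1e-14), where 45 of the tested genes had a larger increase. It was -6.22 ± 0.17 in rescue against knockout (edgeR adjusted p = 8.3e-16) and -1.85 ± 0.25 in rescue against empty vector (edgeR adjusted p = 7.1e-06).

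Ltbp3 (ENSMUSG00000024940, chromosome 19, 5740904 to 5758532, plus strand), which is needed in mice for normal bone and tooth growth and also carries latent TGF-beta, was the most abundant LTBP. It stood at 102, 87.1 and 93.9 CPM in empty vector, then 316, 320.1 and 299 in knockout, and finally 85.4, 77.8 and 78.9 in rescue. Knockout was 3.30-fold above empty vector, and no groups overlapped. The log2 change was 1.72 ± 0.07 in knockout (edgeR adjusted p = 1.4e-13), -1.95 ± 0.07 in rescue against knockout (edgeR adjusted p = 2.2e-14) and -0.23 ± 0.07 in rescue against empty vector (edgeR adjusted p = 0.010), a call lost without empty-vector replicate 1 (edgeR adjusted p = 0.065) or rescue replicate 2 (0.057).

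Ltbp4 (ENSMUSG00000040488, chromosome 7, 27305136 to 27337692, minus strand), known for elastic fibre assembly, moved less. It had 25.6, 33.3 and 33.3 CPM in empty vector, then 44.4, 44.1 and 39.8 in knockout, and finally 27.0, 22.3 and 23.5 in rescue. Knockout lay above both other groups, which overlapped. The log2 change was 0.48 ± 0.10 in knockout (edgeR adjusted p = 0.00042), -0.81 ± 0.10 in rescue against knockout (edgeR adjusted p = 1.9e-06) and -0.33 ± 0.10 in rescue against empty vector (edgeR adjusted p = 0.012), the last lost without empty-vector replicate 3 (edgeR adjusted p = 0.068) or rescue replicate 2 (0.060).

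Ltbp2 (ENSMUSG00000002020, chromosome 12, 84783212 to 84876532, minus strand), a microfibril protein that does not bind latent TGF-beta, was rare. It had 2, 2 and 2 counts in empty vector, 24, 15 and 19 in knockout and 7, 3 and 4 in rescue. The ratio of scaled counts was 11.8 in knockout against empty vector, with a 95% exact interval of 5.11 to 33.5 for counting error, and 2.36 in rescue against empty vector, with an interval of 0.853 to 7.50. Since the gene entered the test through its knockout libraries, no adjusted p is given for it against knockout; between rescue and empty vector the edgeR adjusted p was 0.15.

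Together the LTBP genes summed to 22.9 ± 1.14 FPKM in empty vector against 70.9 ± 2.94 in knockout and 19.2 ± 1.14 in rescue (SD, n = 3). Ltbp3 held 78.5%, 84.8% and 80.3% of that sum on average, and Ltbp1 0.813%, 5.71% and 0.267%. Summed LTBP FPKM was 0.404 to 0.487 times the summed FPKM of the TGF-beta isoforms in empty vector, 0.992 to 1.10 times in knockout and 0.316 to 0.366 times in rescue. The ratio thus lay higher in each knockout library than in any other library. Fibroblasts are a usual source of LTBPs: 3 of 9 fibroblast markers had more than 3 counts in some library, and the list summed to 60.7 to 71.2 CPM in knockout, 26.5 to 33.6 in empty vector and 28.4 to 30.5 in rescue. Most of that was Pdgfrb, at 59.3 CPM in knockout. In empty vector, knockout and rescue, Col1a1 stood at 1.81, 5.56 and 4.22 CPM and Col1a2 at 0.185, 0.844 and 0.0958. Dcn had at most 1 count and Lum and Fap had none. The list's part in the LTBP levels was not tested.

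The windows of Ltbp1 and Ltbp3 are shown since both rose in knockout with Tgfb1; they follow the same conventions. Ltbp1 has a pair of RefSeq start sites, which gene counts do not separate, and the first lies at chr17:75005279-75005528, plus strand. Ltbp3 lies at chr19:5740650-5740899, plus strand.
Ltbp1: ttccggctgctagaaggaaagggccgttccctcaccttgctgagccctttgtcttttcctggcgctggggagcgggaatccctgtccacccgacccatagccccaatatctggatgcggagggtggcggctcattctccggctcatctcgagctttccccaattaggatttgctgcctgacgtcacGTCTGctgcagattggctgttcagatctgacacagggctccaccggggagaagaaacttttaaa
Ltbp3: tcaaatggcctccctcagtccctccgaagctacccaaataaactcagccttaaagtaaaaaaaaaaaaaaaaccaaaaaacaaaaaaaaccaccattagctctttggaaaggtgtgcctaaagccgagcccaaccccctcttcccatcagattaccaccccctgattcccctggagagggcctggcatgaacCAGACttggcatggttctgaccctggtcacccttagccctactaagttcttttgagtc
Each held 1 Smad box match, in Ltbp1 at -64 and in Ltbp3 at -58, and no GC box match, unlike Tgfb1. They were 56.8% and 47.2% G and C. No AP-1 match was found in the windows of the 8 genes, where 6.75% of all windows held 1.

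**Figure D3:**
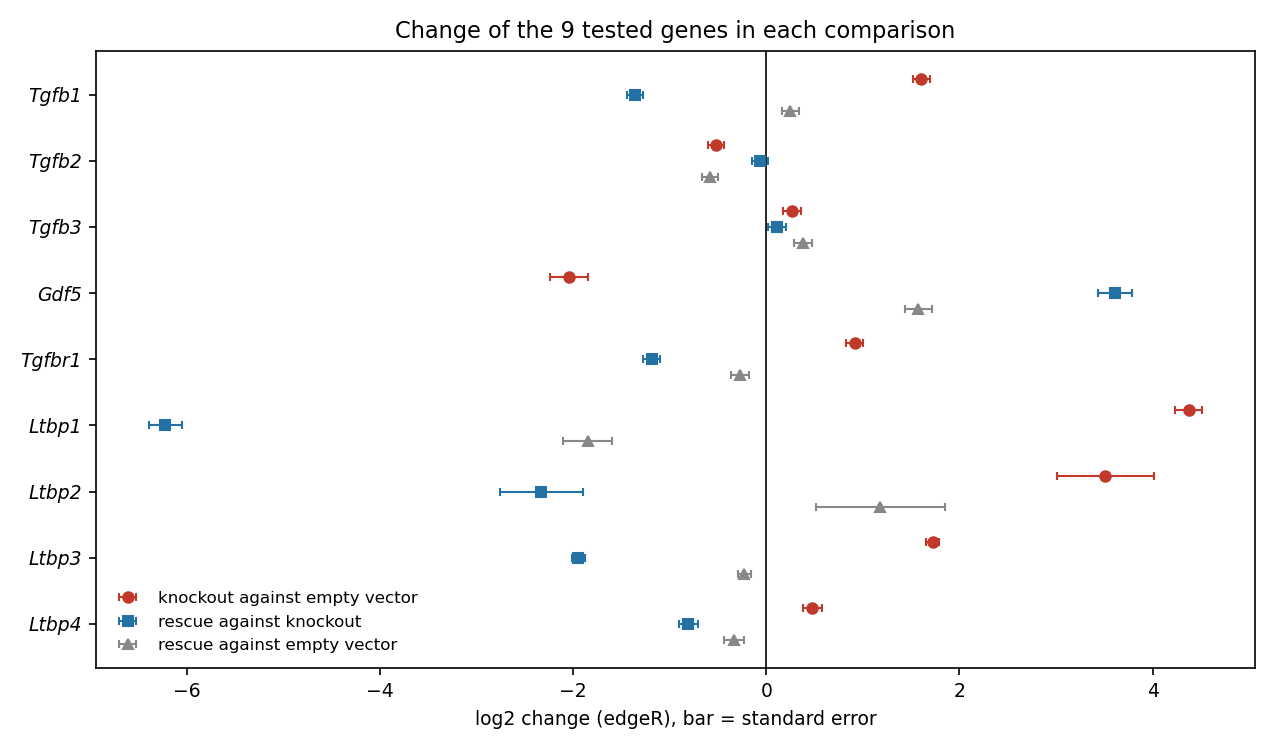
edgeR log2 change (x axis) of the 9 tested genes in the 3 comparisons, with standard errors as bars. Ltbp1 spans from -6.22 in rescue against knockout to 4.37 in knockout against empty vector, while Tgfb2 and Tgfb3 stay within 0.58 of 0.

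In rescue against knockout, 6 of the 9 tested genes were lower and 1, Gdf5, was higher, where 56.8% of all tested genes were called, 27.3% lower and 29.5% higher; groups did not overlap for 7 of the 9, against 65.3% of all genes. The 6 were Tgfb1, Tgfbr1 and the LTBP genes, all of which had been higher in knockout against empty vector; these comparisons share the knockout libraries, so the match in direction is no independent result. Ltbp2, tested only through its knockout libraries, is among the 6 and among the 7 without overlap; over the other 8 genes, 5 were lower and 1 higher. In rescue against empty vector, 3 were higher (Tgfb1, Tgfb3 and Gdf5) and 5 lower (Tgfb2, Tgfbr1, Ltbp1, Ltbp3 and Ltbp4), where 47.5% of all genes were called, 22.4% higher and 25.1% lower; groups did not overlap for 8 of the 9, against 55.1% of all genes. Without empty-vector replicate 1 or without rescue replicate 2 the number lower was 3. Rescue and empty vector were thus not alike in these genes: Ltbp1 and Tgfb2 were lower in rescue, and Gdf5 and Tgfb3 higher.

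Other genes of the pathway were counted in 7 lists, without the 10 genes above. Over the lists together, 79 of 137 genes were tested; 42 were higher and 21 lower in knockout against empty vector, 17 higher and 38 lower in rescue against knockout, and 19 higher and 22 lower in rescue against empty vector. Their median log2 changes were 0.31, -0.34 and 0.02, beside -0.02, 0.03 and -0.02 over all tested genes. These counts and medians include Mmp9, Pmepa1 and Postn, which passed the filter on low counts only through their knockout libraries (Mmp9 and Pmepa1 named after their values were seen). Their calls against knockout were thus largely set by the filter. Of all tested genes, 60.6% were called in the first comparison (29.5% higher, 31.1% lower). In rescue against knockout 56.8% were called (29.5% higher, 27.3% lower), and in rescue against empty vector 47.5% (22.4% higher, 25.1% lower). A count of called genes alone, here or in the lists below, therefore says little about the pathway.

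The list of latency, matrix anchoring and activation genes had the highest median in knockout, 1.25. Of 12 tested of 24 genes, 10 rose and 1 fell, where 29.5% of all tested genes were called higher and 31.1% lower. Mmp9, among the 10, was tested only through its knockout libraries. Furin, the protease that cuts the TGF-beta propeptide, went from 70.2 ± 6.09 to 197 ± 15.3 CPM and stood at 99.3 ± 10.7 in rescue (SD, n = 3; edgeR adjusted p = 9.2e-11 in knockout). Itgb5, the integrin subunit that pairs with alpha v and binds latent TGF-beta, went from 530.4 ± 84.9 to 1979 ± 138 CPM and to 636 ± 28.5 in rescue (edgeR adjusted p = 1.3e-11 in knockout). The gelatinase Mmp2 stood at 7.76 ± 0.507, 109 ± 2.26 and 0.811 ± 0.0512 CPM in the order empty vector, knockout and rescue. The gene that fell (named after its values were seen) was Itgb6, subunit of an epithelial activator of TGF-beta, with 5.47 CPM in empty vector but 0.966 in knockout. In rescue against knockout 9 of the 12 fell and 2 rose (median -0.85), and in rescue against empty vector 7 rose and 2 fell. Of all tested genes, 56.8% and 47.5% were called in these comparisons. Of the genes not tested, the anchor Fbn1 had at most 14 counts in a library and fibronectin, Fn1, at most 2 (both named after their values were seen).

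Of the other receptors and co-receptors, 5 of 10 tested rose and 1 fell in knockout (median 0.22), where 60.6% of all tested genes were called. Acvrl1, a type I receptor best known from endothelium, stood at 6.83 ± 0.581, 22.4 ± 1.28 and 1.65 ± 0.152 CPM in empty vector, knockout and rescue (edgeR adjusted p = 1.3e-10 in knockout). Its co-receptor endoglin, Eng, stood at 166 ± 7.96, 288 ± 13.8 and 125 ± 7.94 CPM (edgeR adjusted p = 3.9e-09). Like Acvrl1, Eng is best known from endothelium. Of 7 endothelial markers Kdr and Emcn had no count and Cdh5 at most 1. The list summed to 0.562 to 1.03 CPM in empty vector, 0.969 to 1.97 in knockout and 0.329 to 0.692 in rescue. In the same order, mean levels were 0.497, 0.664 and 0.225 CPM for Pecam1 and 0.162, 0.573 and 0.236 for Vwf. Only 1 marker, Pecam1, was tested, and it was called only in rescue against knockout, as lower. The list's part in the Acvrl1 and Eng levels was not tested. The gene that fell, the activin receptor Acvr2a, went from 78.3 ± 0.537 to 52.1 ± 3.22 CPM and was at 50.7 ± 1.72 in rescue (edgeR adjusted p = 1.5e-07 in knockout). In rescue against knockout 6 of the 10 fell (median -0.55), as did 6 in rescue against empty vector. The shares called among all tested genes were 56.8% and 47.5%.

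Of 9 tested superfamily ligands among 25, 2 rose and 4 fell in knockout (median 0.09), where 60.6% of all tested genes were called. Inhba, the activin A subunit, fell from 406 ± 30.4 to 152 ± 13.9 CPM and stood at 175 ± 20.1 in rescue (edgeR adjusted p = 2.7e-10 in knockout). Gdf11, a ligand close to myostatin, fell from 70.9 ± 3.22 to 30.5 ± 1.64 CPM and was at 76.2 ± 3.08 in rescue (edgeR adjusted p = 1.8e-11). Bmp7, a ligand needed for kidney development, rose from 1.25 ± 0.191 to 6.62 ± 0.565 CPM and was at 1.71 ± 0.0966 in rescue (edgeR adjusted p = 3.1e-09). In rescue against knockout 3 rose and 2 fell, where 56.8% of all tested genes were called.

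Of 20 tested Smads and their regulators, 7 rose and 10 fell in knockout (median -0.15), where 60.6% of all tested genes were called. Pmepa1, among the 7, was tested only through its knockout libraries. The inhibitory Smads rose: Smad6 went from 23.3 ± 2.09 to 51.1 ± 1.94 CPM (edgeR adjusted p = 4.5e-10) and Smad7 from 31.4 ± 0.616 to 54.8 ± 3.26 (edgeR adjusted p = 4.7e-09). In rescue Smad7 was at 27.6 ± 0.597 CPM, while Smad6 stood at 41.9 ± 3.17, above empty vector (log2 change 0.85 ± 0.08, edgeR adjusted p = 7.4e-08). The ubiquitin ligase Nedd4l fell from 261 ± 4.68 to 148 ± 11.8 CPM and was at 254 ± 17.3 in rescue (edgeR adjusted p = 5.3e-09 in knockout). In rescue against knockout 9 of the 20 rose and 6 fell (median 0.07), where 56.8% of all tested genes were called.

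Genes known to respond to TGF-beta rose in 14 and fell in 4 of 22 tested in knockout (median 0.37). In rescue against knockout 2 rose and 13 fell (median -0.43), and 4 rose with library totals alone as the scale. Of all tested genes, 60.6% and 56.8% were called in these comparisons. Besides Smad7, Angptl4, a lipase inhibitor that hypoxia also induces, fell from 480.1 ± 49.3 to 161 ± 6.33 CPM and further to 94.8 ± 5.27 in rescue (edgeR adjusted p = 1.8e-12 in knockout). Postn, the matrix protein periostin, had 2 counts over empty vector, 133 over knockout and 3 over rescue. Postn and Pmepa1, both among the 14 that rose, were tested only through their knockout libraries. Genes known to respond to BMPs were tested in 5 cases of 12, and all 5 rose in knockout (median 0.81). Of all tested genes, 29.5% were called higher there. Among these BMP response genes Id2, an inhibitor of helix-loop-helix factors, went from 3.11 ± 0.426 to 10.6 ± 0.592 CPM and was at 8.03 ± 2.54 in rescue (edgeR adjusted p = 4.9e-07 in knockout). In rescue against knockout 3 of the 5 fell and 1 rose, where 27.3% of all tested genes were called lower and 29.5% higher. Some genes stand in more than 1 list.

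Of 6 tested BMP and activin antagonists and modulators among 15, 4 rose and 1 fell in knockout (median 0.49), and 4 fell in rescue against knockout. Of all tested genes, 60.6% and 56.8% were called in these comparisons. Twsg1, which binds BMPs, went from 282 ± 18.3 to 441 ± 21.2 CPM and was at 295 ± 14.5 in rescue (edgeR adjusted p = 1.0e-07 in knockout). Nbl1, a secreted BMP antagonist, went from 58.3 ± 8.39 to 94.4 ± 4.40 and to 48.9 ± 3.86 CPM (edgeR adjusted p = 1.9e-06). The secreted protease Htra1 went from 4.73 ± 0.499 to 9.78 ± 0.873 and to 3.66 ± 0.110 CPM (edgeR adjusted p = 2.4e-06).

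**Figure D4:**
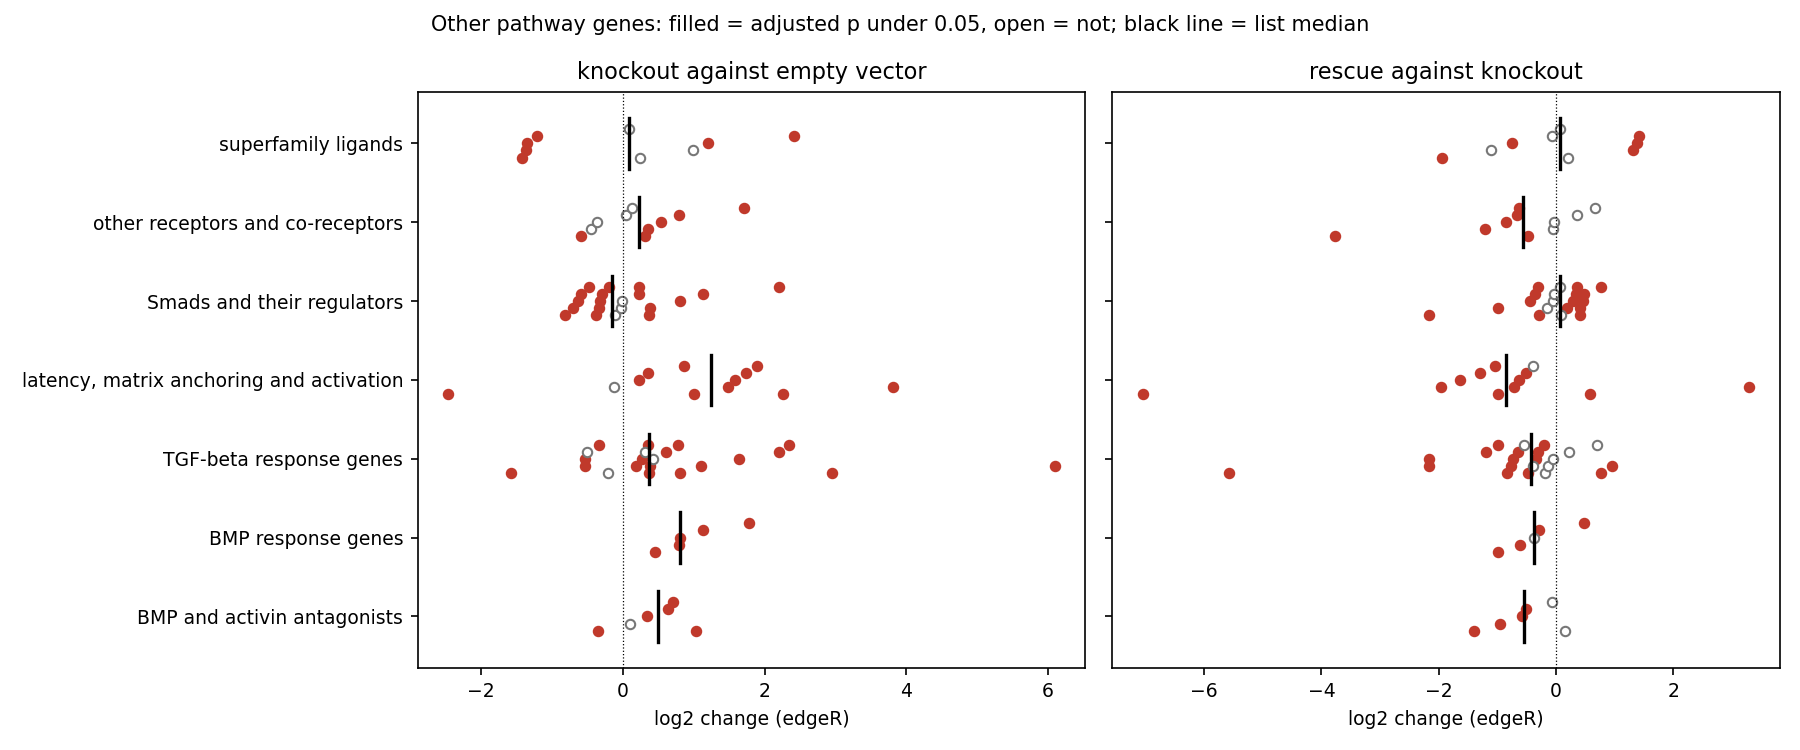
edgeR log2 changes (x axis) of the tested genes of 7 pathway lists in knockout against empty vector (left) and rescue against knockout (right); filled points had an adjusted p under 0.05, open points did not, and the black line is the list median. The latency and activation list has the highest median on the left, 1.25.

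Genes with the most similar course over the 9 libraries were sought by the root mean square difference of log2 CPM, each centred on its own mean, among 10504 named protein-coding genes of at least 1 CPM. The nearest to Tgfb1 was Trp53inp1, with a difference of 0.080 log2 units, and the nearest to Tgfbr1 was Gprc5c (0.055). Ltbp3 was nearest to Sh3pxd2b (0.076) and Ltbp4 to Tmem214 (0.074). Tgfb2 was nearest to Sgpp1 (0.066) and Tgfb3 to Mib2 (0.071). The remaining genes had no such close partner: the smallest difference was 0.26 for Ltbp2 (Bsnd), 0.30 for Gdf5 (Ccdc169) and 0.53 for Ltbp1 (Dach1). Each had a group with low counts: 2 per library for Ltbp2 in empty vector, 13 to 28 for Gdf5 in knockout and 7 to 18 for Ltbp1 in rescue. The part of counting error in these differences was not tested. Trp53inp1, for example, stood at 34.6, 114 and 40.7 CPM in empty vector, knockout and rescue, where Tgfb1 stood at 33.0, 101 and 39.4.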

How the data were processed

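Gene counts (whole numbers, raw) and FPKM values per library were deposited by the authors, per the file headers. CASAVA, HISAT2, HISAT, TopHat2 and the build mm10 are named in the submitters' processing notes; the read counter, its strand setting and the annotation are not given in the sources used here, and directional and non-directional preparation are both described in the labels' protocols. The authors' log2 fold changes and p-values stand in the deposited table (its group means were not used), their test being not given in the sources used here. The FPKM values used a library size of 0.906 to 1.08 times the count total. They served to compare levels between genes and to plot levels per library. Sums, shares and ratios of the isoform and LTBP genes were also formed from them and compared between groups. The permutation tests of the Tgfb1 share used these values, while the edgeR tests used the counts.

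Counts were tested with edgeR 4.0.16 (R 4.3.3): filterByExpr on the groups, TMM factors, 1 mean per group over all 9 libraries, robust quasi-likelihood F-tests, and Benjamini-Hochberg adjustment over 13326 genes, with calls at an adjusted p under 0.05. Standard errors were taken as log2 change over the root of F, and CPM uses TMM-scaled library sizes. Groups came from the sample titles. The test was checked on simulated counts in which only a small share of genes was changed. That check does not cover scaling where as many genes change as were called here. Alternatives were library totals, RLE factors, DESeq2 1.42.0, no or a stricter filter, only the groups compared, no mitochondrial genes, a replicate block, and each library left out.

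The genes and lists were chosen with earlier results of these data known. The 7 pathway lists hold superfamily ligands, other receptors, Smads and regulators, latency and activation genes, TGF-beta and BMP response genes, and BMP antagonists; marker lists cover renal epithelium, fibroblasts, endothelium, leukocytes and platelets (0.882 to 2.15 CPM summed). Named genes are the 10 genes, up to 3 per list with the smallest adjusted p in knockout against empty vector, and the nearest gene by course (log2 CPM with a prior count of 2); others are marked as named after their values were seen, or are markers or an overlapping gene. Promoter windows were searched as letters, for the 250 bases before the start only, and protein sequences were not used here. No pair of libraries within a group agreed within sampling noise (chi-square over its degrees of freedom, 3.53 to 19.5).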

Additional observations from a re-analysis of the deposited data

How the results depend on the processing

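No log2 change of the 9 tested genes changed sign with a call on either side under the 17 alternatives. Scaling by library totals alone shifted the all-gene median by -0.15 in knockout against empty vector and by 0.18 in rescue against knockout, turned the higher share of calls from 48.7% to 34.4% and from 51.9% to 69.6%, and raised the genes called higher in rescue against knockout from 3928 to 5916; 2 of the 9 genes were higher there (Tgfb3 added) in place of 1. In rescue against empty vector, leaving out 1 library gave 3 to 5 genes lower in place of 5. The Tgfb1 share of the isoforms was 14.7%, 35.2% and 16.9% in empty vector, knockout and rescue with CPM in place of FPKM, which drops the gene length, and was the same with counts divided by gene length. Ltbp2 was not tested under the stricter filter. In list counts, BMP antagonists lower in rescue against empty vector ran from 0 to 4 (4 as reported) and Smads higher there from 1 to 3 (3 as reported). Other list counts moved by over 1.5 times only where the main count was 2 or fewer. Deviations from the group mean gave r of -0.15 to 0.045 between same-numbered libraries, and -0.088 to 0.10 between other libraries of different groups. With 3 libraries a group, this cannot decide whether the numbers pair libraries. With the replicate block 9, 7 and 8 of the genes were called in the 3 comparisons, as without it. Of all genes, 7890, 7367 and 6091 were called in place of 8078, 7567 and 6330. Depth limits Tgfbr2 and Ltbp2 most, with at most 9 and 24 counts in a library.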
